A study of Homo sapiens with 12 samples.

Results

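The genes described here are 10 genes of fatty acid synthesis and desaturation, out of 20263 genes measured: ACLY, ACSS2, ACACA, FASN, ELOVL6, ELOVL5, SCD, FADS2, FADS1 and SREBF1. They were taken as a list by function, with earlier results of these data known. All 10 were found in the expression tables after Ensembl identifiers were matched to symbols. RNA-seq levels were given in TPM, a length-adjusted share of each library's transcripts, for 12 libraries of human colorectal cancer cell lines, 3 in each of 4 groups. HCT116-CKAP2L cells overexpressed CKAP2L, a mitotic spindle protein, and were set against HCT116-Vector cells, the control. RKO-shCKAP2L cells carried a short hairpin RNA against CKAP2L and were set against RKO-NC cells, the negative control. The labels give no treatment, time, promoter, hairpin sequence or clone for any group. The genotype labels of the shCKAP2L libraries with replicate numbers 2 and 3 name other hairpins (shCKAP3L and shCKAP4L), and their titles name shCKAP2L, which was followed here. The labels do not say whether the 3 libraries of a group are separate cultures. The p-values below therefore stand for the spread among libraries, which may be technical.

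Cells make fatty acids from acetyl-CoA, which ACLY splits from citrate and ACSS2 makes from acetate. ACACA turns acetyl-CoA into malonyl-CoA, FASN joins these units into palmitate, and ELOVL6 lengthens palmitate to stearate. SCD puts the first double bond into saturated chains to give oleate and palmitoleate, while FADS2, ELOVL5 and FADS1 desaturate and lengthen polyunsaturated chains taken up from outside. SREBF1 encodes SREBP-1, the membrane-bound transcription factor that switches on most of these genes once it is cut and released. Tumour cells of the colon often run this pathway at a high rate.

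The targeted gene followed the labels. CKAP2L stood at 231, 231 and 219 TPM in HCT116-CKAP2L cells, against 14.2, 12.8 and 15.2 TPM in HCT116-Vector cells (transcripts of the construct and of the endogenous gene are not separated). In RKO-shCKAP2L cells CKAP2L stood at 7.59, 7.82 and 8.56 TPM, against 24.9, 24.0 and 25.8 TPM in RKO-NC cells. Between 16450 and 16684 genes were above 0 in HCT116 libraries, and between 14181 and 14573 in RKO libraries. TPM keeps no read depth, so the number of reads behind a value is unknown. The epithelial markers EPCAM, CDH1 and KRT19 were high in HCT116 cells, whereas RKO cells had EPCAM at 18.1 and 15.9 TPM in shCKAP2L and NC cells, no CDH1 in any library and KRT19 at or near 0. Of the epithelial keratins, KRT18 averaged 92.5 TPM in RKO-shCKAP2L and 149.5 TPM in RKO-NC cells and fell by 0.69, while KRT8 averaged 29.9 and 24.5 TPM in these groups and rose by 0.28. In HCT116 cells KRT8 fell by 0.32 and KRT18 by 0.22, and EPCAM rose by 0.17. The 12 epithelial and colon markers in the tables, 7 of them tested in HCT116 cells and 4 in RKO cells, summed to 6335 to 6404 TPM in HCT116-CKAP2L and 6965 to 7342 TPM in HCT116-Vector cells, and to 149 to 158 TPM in RKO-shCKAP2L and 198 to 209 TPM in RKO-NC cells. Their part in the results was not tested. CDX2, an intestinal transcription factor, stood between 12.3 and 13.1 TPM on average in all 4 groups, and KRT20 averaged 4.88 TPM in HCT116-CKAP2L and 5.63 TPM in HCT116-Vector cells and was near 0 in RKO cells. The other colon markers VIL1, CDX1, LGALS4, GPA33 and CEACAM5 were below 1 TPM in every group of both lines. Of the fibroblast markers 7 of 8, and of the immune markers 8 of 9, were below 1 TPM in both lines, COL1A1 and CD68 being the exceptions. CD68 averaged 1065 TPM in RKO-shCKAP2L and 1042 TPM in RKO-NC cells. It averaged 27.7 TPM in HCT116-CKAP2L and 31.3 TPM in HCT116-Vector cells, and passed in neither line. The fibroblast markers summed to 47.8 to 47.9 TPM in HCT116-CKAP2L cells and 41.3 to 44.8 TPM in HCT116-Vector cells, nearly all of it COL1A1, and their part in the results was not tested. Every endothelial marker (5) and adipocyte marker (5) was below 1 TPM in both lines.

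The promoter windows of the members that the results turn on are shown first, so that their letters can be set beside their values. Each runs from 250 bases before to 50 bases after the RefSeq gene start (build GRCh38.p14), 5′ to 3′ on the gene's own strand, in lower case. Capitals mark matches, on either strand, to the CCAAT box CCAAT, the E-box CACGTG and the SP1 box GGGCGG, so that matches on the opposite strand read ATTGG and CCGCCC. SCD (chr10:100346983-100347282, plus strand) and SREBF1 (chr17:17836937-17837236, minus strand) stand for members that changed in opposite directions in the 2 lines. FADS1 (chr11:61816954-61817253, minus strand) and FADS2 (chr11:61815953-61816252, plus strand) are overlapping neighbours, of which RKO cells had only FADS2 above 1 TPM, and ELOVL5 (chr6:53348901-53349200, minus strand) is the member that did not pass the test.
SCD: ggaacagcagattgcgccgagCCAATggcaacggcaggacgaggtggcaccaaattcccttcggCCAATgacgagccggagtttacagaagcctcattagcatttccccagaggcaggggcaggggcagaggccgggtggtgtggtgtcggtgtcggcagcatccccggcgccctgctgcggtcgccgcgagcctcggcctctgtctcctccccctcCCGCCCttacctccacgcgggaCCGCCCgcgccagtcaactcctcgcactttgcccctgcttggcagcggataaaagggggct
SREBF1: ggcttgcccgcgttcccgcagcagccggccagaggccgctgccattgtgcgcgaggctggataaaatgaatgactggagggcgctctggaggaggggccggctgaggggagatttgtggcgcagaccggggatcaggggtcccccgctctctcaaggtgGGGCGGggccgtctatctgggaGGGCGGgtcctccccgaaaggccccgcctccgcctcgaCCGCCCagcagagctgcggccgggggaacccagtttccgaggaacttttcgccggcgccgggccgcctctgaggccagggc
FADS1: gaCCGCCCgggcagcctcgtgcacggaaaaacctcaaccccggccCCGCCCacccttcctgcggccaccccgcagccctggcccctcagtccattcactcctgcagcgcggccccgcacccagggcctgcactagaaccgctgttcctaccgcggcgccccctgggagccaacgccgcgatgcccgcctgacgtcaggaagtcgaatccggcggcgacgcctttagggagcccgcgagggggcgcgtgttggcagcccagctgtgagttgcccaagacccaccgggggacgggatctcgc
FADS2: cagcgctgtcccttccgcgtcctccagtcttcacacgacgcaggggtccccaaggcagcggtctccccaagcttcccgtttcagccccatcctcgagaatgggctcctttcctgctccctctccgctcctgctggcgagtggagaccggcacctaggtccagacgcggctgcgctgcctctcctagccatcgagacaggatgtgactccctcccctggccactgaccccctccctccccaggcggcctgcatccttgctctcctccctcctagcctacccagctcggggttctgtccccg
ELOVL5: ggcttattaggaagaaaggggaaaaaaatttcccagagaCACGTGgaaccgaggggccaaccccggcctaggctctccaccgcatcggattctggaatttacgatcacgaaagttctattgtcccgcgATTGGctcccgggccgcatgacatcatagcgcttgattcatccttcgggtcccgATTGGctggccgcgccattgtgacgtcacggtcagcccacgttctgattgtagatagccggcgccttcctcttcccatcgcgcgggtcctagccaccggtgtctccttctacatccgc

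Of the 10 members, 9 had a window in the table, FASN being the one without. No member's window held the sterol regulatory element TCACNCCAC, the sequence bound by SREBP, on either strand, and 1.13% of all 35116 windows held it. CCAAT boxes were found in 4 of the 9 windows (SCD, ACLY, ELOVL5 and ACSS2), against 34.6% of all windows. An SP1 box, a GC-rich element, was found in 7 of the 9, against 45% of all windows, and an E-box only in that of ELOVL5, against 7.26%. The FADS2 window held none of the 4 motifs. Only the first listed window of each gene was searched. ACACA had 3 windows listed, and ACLY, FADS2 and ACSS2 had 2 each. The RefSeq gene start of a window need not be the outer start in GENCODE release 29. For ACSS2 it was 34874989, in a span beginning at 34872146 (plus strand). For FADS2 it was 61816203, in a span beginning at 61792980 (plus strand). FADS1 and ACLY, on the minus strand, had 61817003 and 41919022, in spans running up to 61829318 and 41930542. Which starts these cells used was not tested. The windows of ACACA and FADS1 were 82.3% and 72.0% G and C, against a median of 58.7% over all windows, while ACSS2 had 55.3% and a CpG observed-to-expected ratio of 0.18 against a median of 0.58. A match describes letters only, and no match says only that these letters are not in this window.

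**Figure D1:**
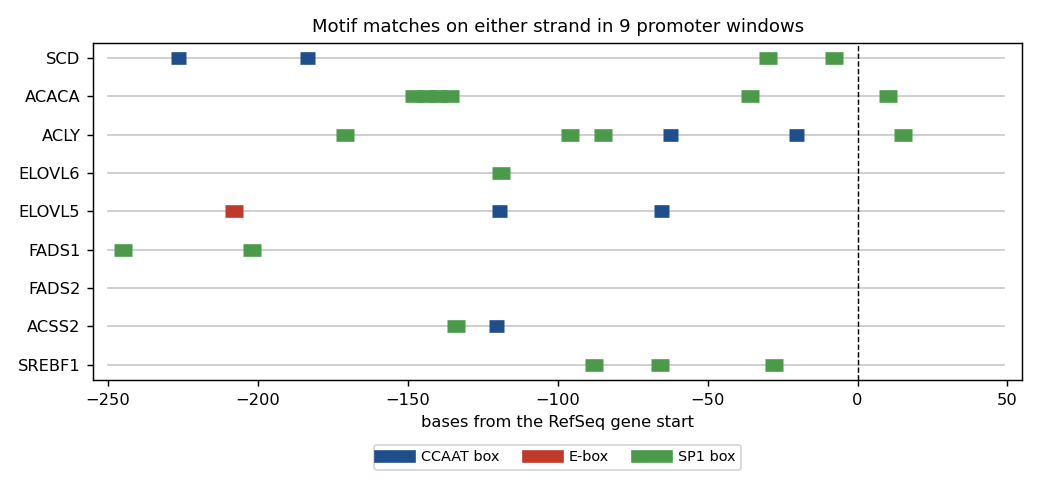
Positions of motif matches in the promoter windows of 9 members, in bases from the RefSeq gene start (dashed line), with CCAAT boxes in blue, the E-box in red and SP1 boxes in green; each grey line is 1 window. SP1 boxes appear in 7 of the 9 windows and the FADS2 window is empty. None of these first listed windows held the sterol regulatory element.

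In HCT116 cells, 9 of the 10 members were higher with CKAP2L overexpression and none was lower, also at an unadjusted p under 0.05. SCD changed most, by a factor of 1.67, and ELOVL5 was the only member that did not pass. The test was limma on log2(TPM + 1), two-sided, with Benjamini-Hochberg adjustment over all 12732 genes with a mean of at least 1 TPM in the line and a threshold of 0.05. Over all tested genes, 16.4% were called higher and 4.26% lower, and the 3 libraries of each group did not overlap, with CKAP2L libraries higher, in 28.3% of genes, or lower, in 8.98%. The members' median log2 fold change was 0.36, against 0.05 over all tested genes. The split of calls over all genes moved with the scaling, being 2082 higher and 543 lower as deposited, 1119 and 1203 after median-of-ratios rescaling, 1102 and 1131 after quantile normalization, and 1158 and 959 with TPM recomputed without mitochondrial mRNAs. Mitochondrial mRNAs took 25.7% to 26.1% of TPM in CKAP2L libraries and 28.0% to 28.6% in Vector libraries. Without them 9 members were still called higher, with a median log2 fold change of 0.31.

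In RKO cells, 8 members passed the filter on low values, and 7 of them were lower with CKAP2L knockdown while FADS2 was higher. SCD again changed most and fell by 42.8%. Over all 11442 tested genes, 42.1% were called lower and 26.4% higher, and the groups did not overlap in 43.3% of genes with shCKAP2L libraries lower and in 28.1% with them higher. The split of calls moved with the scaling in RKO cells too. As deposited it was 3019 higher and 4819 lower. It was 3793 and 4204 after median-of-ratios rescaling, 3727 and 4222 after quantile normalization, and 3657 and 4367 without mitochondrial mRNAs. The members' median log2 fold change was -0.28, against -0.05 over all tested genes. Mitochondrial mRNAs took 22.4% to 23.7% of TPM in shCKAP2L libraries and 20.4% to 22.5% in NC libraries, and without them 7 members were lower and 1 higher, with a median of -0.24. ELOVL5 and FADS1 were not tested, since both were at or near 0 in every RKO library. In bulk RNA, fewer cells of a type and less RNA per cell cannot be told apart.

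**Figure D2:**
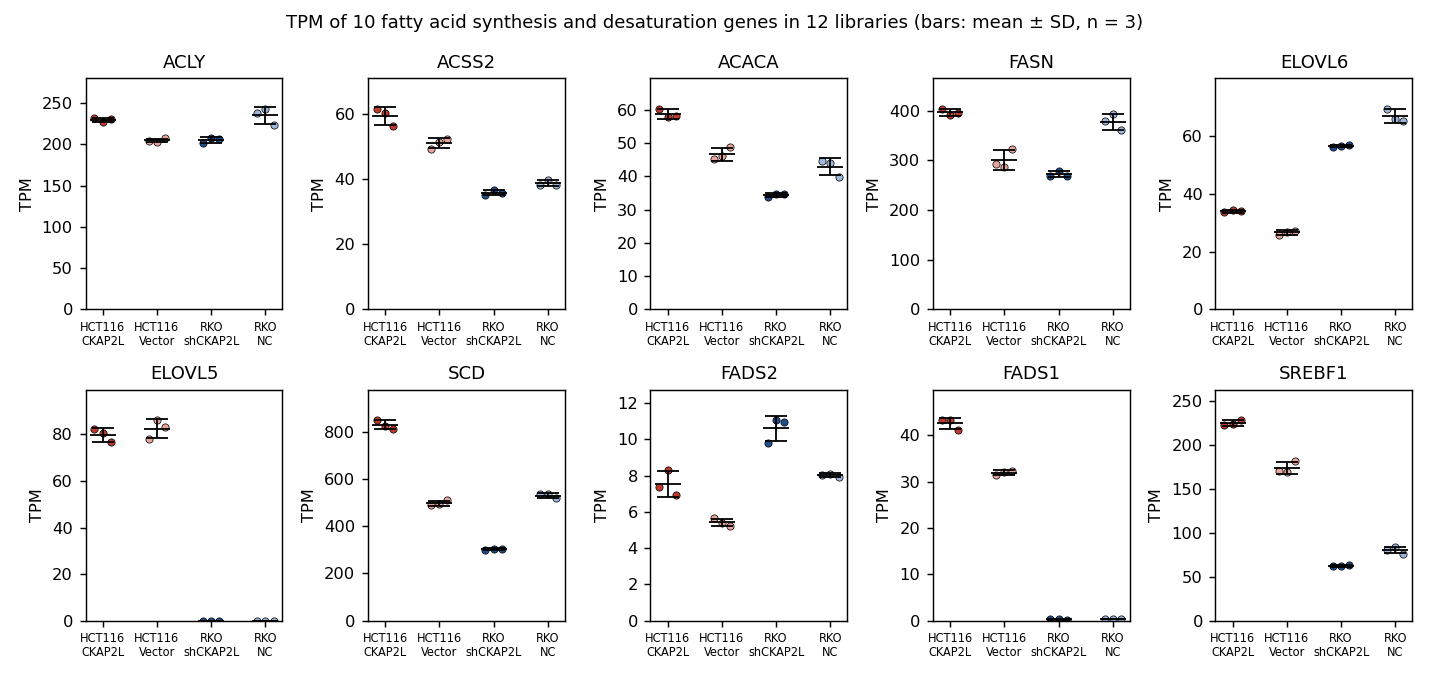
TPM of each member in the 12 libraries (points, 1 per library) with the mean and SD of each group of 3 (bars), on linear axes starting at 0. All members but ELOVL5 and FADS2 stand higher in HCT116-CKAP2L than in HCT116-Vector cells and, where present, lower in RKO-shCKAP2L than in RKO-NC cells; FADS2 is higher in the CKAP2L and in the shCKAP2L cells.

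ACLY and ACSS2, the sources of cytosolic acetyl-CoA, changed least among the members that passed. ACLY, which cleaves citrate, stood at 231, 227 and 231 TPM in HCT116-CKAP2L cells, against 204, 203 and 207 TPM in HCT116-Vector cells. The groups did not overlap, and ACLY rose by 0.17 ± 0.03 on the log2 scale (± SE here and below; limma adjusted p = 0.0014). In RKO-shCKAP2L cells ACLY stood at 202, 208 and 206 TPM, against 238, 243 and 224 TPM in RKO-NC cells. Again the groups did not overlap, and ACLY fell by 0.19 ± 0.03 (adjusted p = 3.75e-05). ACSS2, which makes acetyl-CoA from acetate, stood at 61.7, 60.2 and 56.3 TPM in HCT116-CKAP2L cells, against 49.4, 51.4 and 52.4 TPM in HCT116-Vector cells, a rise of 0.21 ± 0.04 with no overlap (adjusted p = 0.00385). In RKO-shCKAP2L cells it stood at 35.2, 36.8 and 35.7 TPM, against 38.3, 39.8 and 38.2 TPM in RKO-NC cells. The highest shCKAP2L library stood at 36.8 TPM and the lowest NC library at 38.2 TPM, and the fall of 0.11 ± 0.03 (adjusted p = 0.00947) was lost under quantile normalization (-0.05, adjusted p = 0.125) and without the shCKAP2L library numbered 1 (-0.09, adjusted p = 0.0514). ACSS2 overlaps GGT7 on the opposite strand, which stood at 28.6 and 26.4 TPM in HCT116-CKAP2L and Vector cells and near 0 in RKO cells. No source used here gives the strand setting of the counting, so how reads from stretches shared by overlapping genes were assigned is unknown.

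ACACA, the rate-limiting carboxylase, and FASN, the synthase that builds palmitate, changed together in both lines. ACACA stood at 60.5, 57.8 and 58.2 TPM in HCT116-CKAP2L cells, against 45.2, 46.1 and 48.8 TPM in HCT116-Vector cells. FASN, several times more abundant, stood at 404, 390.1 and 395 TPM in HCT116-CKAP2L cells, against 293, 286 and 323 TPM in HCT116-Vector cells. Neither gene's groups overlapped; ACACA rose by 0.33 ± 0.04 (adjusted p = 0.000111) and FASN by 0.40 ± 0.04 (adjusted p = 1.2e-05). In RKO-shCKAP2L cells ACACA stood at 33.8, 34.8 and 34.6 TPM, against 44.6, 44.2 and 40.0 TPM in RKO-NC cells, and fell by 0.31 ± 0.04 (adjusted p = 5.3e-06). FASN stood at 269, 279 and 268 TPM in RKO-shCKAP2L cells, against 379.8, 393 and 361 TPM in RKO-NC cells, and fell by 0.47 ± 0.03 (adjusted p = 2.11e-09). Of the RKO-NC libraries, the one numbered 3 lay closest to the knockdown for both genes, and the groups stayed apart. The FASN to ACACA ratio was 6.74 ± 0.06 in HCT116-CKAP2L and 6.44 ± 0.21 in HCT116-Vector cells (SD, n = 3), and 7.91 ± 0.14 in RKO-shCKAP2L and 8.81 ± 0.26 in RKO-NC cells. Groups did not overlap in either line, though the nearest HCT116 libraries stood at 6.68 and 6.62.

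ELOVL6, which lengthens palmitate to stearate, was lower in HCT116 than in RKO libraries in TPM, a difference set across separately made tables and not tested. It stood at 33.5, 34.5 and 34.0 TPM in HCT116-CKAP2L cells, against 25.8, 26.9 and 27.1 TPM in HCT116-Vector cells, and rose by 0.34 ± 0.04 (adjusted p = 0.00011). In RKO-shCKAP2L cells it stood at 56.2, 56.5 and 56.9 TPM, against 69.6, 66.0 and 65.3 TPM in RKO-NC cells, and fell by 0.24 ± 0.03 (adjusted p = 4.99e-06). Groups did not overlap in either line.

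SCD, the desaturase that makes oleate, was the most abundant member in all 4 groups and changed most in both lines. It stood at 851, 827 and 814 TPM in HCT116-CKAP2L cells, against 489, 494 and 510.1 TPM in HCT116-Vector cells. The means were 831 ± 19.1 and 498 ± 11.0 TPM (SD, n = 3), and the log2 fold change was 0.74 ± 0.03 (adjusted p = 2.24e-09). Among all genes of a library SCD ranked 104th to 111th by TPM in HCT116-CKAP2L cells, and 174th to 183rd in HCT116-Vector cells. In RKO-shCKAP2L cells it stood at 300.5, 305 and 305 TPM, against 536, 535 and 519 TPM in RKO-NC cells. The means were 303 ± 2.51 and 530.2 ± 9.48 TPM (SD, n = 3), and SCD fell by 0.80 ± 0.02 (adjusted p = 5.75e-13). Its rank in RKO cells was 335th to 344th with shCKAP2L, against 187th to 192nd with NC. No GENCODE gene overlaps SCD or FASN.

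SCD moved further than the rest of the pathway, as ratios within a library show without any scaling. The SCD to FASN ratio was 2.10 ± 0.03 in HCT116-CKAP2L and 1.66 ± 0.08 in HCT116-Vector cells (SD, n = 3), and 1.12 ± 0.02 in RKO-shCKAP2L and 1.41 ± 0.04 in RKO-NC cells. The SCD to ELOVL6 ratio, a desaturase against the elongase that feeds it, was 24.4 ± 0.83 in HCT116-CKAP2L and 18.7 ± 0.32 in HCT116-Vector cells, and 5.37 ± 0.02 in RKO-shCKAP2L and 7.92 ± 0.20 in RKO-NC cells. SCD to ACLY was 3.62 ± 0.08 in HCT116-CKAP2L and 2.43 ± 0.03 in HCT116-Vector cells, and 1.47 to 1.49 in RKO-shCKAP2L and 2.20 to 2.32 in RKO-NC cells. Groups did not overlap for these 3 ratios in either line, and an exact permutation test of 3 against 3 libraries cannot go below p = 0.1. FASN to ACLY ran the same way, at 1.73 ± 0.02 in HCT116-CKAP2L and 1.47 ± 0.08 in HCT116-Vector cells, and 1.32 ± 0.02 in RKO-shCKAP2L and 1.61 ± 0.01 in RKO-NC cells.

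**Figure D3:**
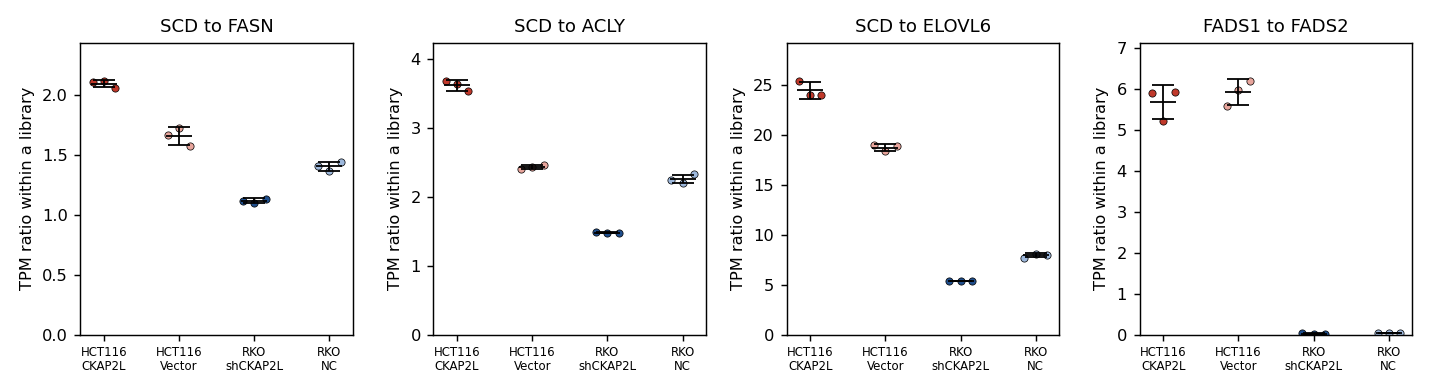
TPM ratios of 2 members within each library (points) with the mean and SD of each group of 3 (bars), on linear axes from 0. The 3 SCD ratios are higher in HCT116-CKAP2L than in HCT116-Vector cells and lower in RKO-shCKAP2L than in RKO-NC cells; FADS1 to FADS2 overlaps between the HCT116 groups and lies near 0 in RKO cells.

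In the polyunsaturated branch, FADS2 and FADS1 rose in HCT116 cells and ELOVL5 did not pass, and FADS2 was the only one of the 3 tested in RKO cells. FADS2, which starts that branch, stood at 7.36, 8.31 and 6.93 TPM in HCT116-CKAP2L cells, against 5.64, 5.39 and 5.22 TPM in HCT116-Vector cells. In RKO-shCKAP2L cells it stood at 9.82, 11.1 and 11.0 TPM, against 8.02, 8.12 and 7.90 TPM in RKO-NC cells. FADS2 was therefore higher with overexpression in HCT116 cells (0.41 ± 0.08, adjusted p = 0.00244) and higher with knockdown in RKO cells (0.36 ± 0.05, adjusted p = 1.47e-05), with no overlap in either line. It was the least abundant member in HCT116 cells.

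FADS1, which acts later in the branch, stood at 43.4, 43.3 and 41.1 TPM in HCT116-CKAP2L cells, against 31.5, 32.2 and 32.4 TPM in HCT116-Vector cells, without overlap, and rose by 0.40 ± 0.04 (adjusted p = 1.85e-05). In RKO cells it stood at 0.29, 0.29 and 0.16 TPM with shCKAP2L, against 0.38, 0.33 and 0.29 TPM with NC, overlapping and below the filter. The FADS1 to FADS2 ratio was 5.68 ± 0.41 in HCT116-CKAP2L and 5.92 ± 0.31 in HCT116-Vector cells (SD, n = 3), overlapping, and 0.023 ± 0.008 in RKO-shCKAP2L and 0.042 ± 0.005 in RKO-NC cells, where FADS1 is near 0. In GENCODE release 29 on GRCh38, FADS1 (chr11:61799625-61829318, minus strand) and FADS2 (chr11:61792980-61867354, plus strand) overlap on opposite strands, and the RefSeq starts of the windows printed above lie 800 bases apart. FADS2 also overlaps FEN1 on its own strand, a DNA flap endonuclease that was more abundant. FEN1 stood at 112.0 ± 0.31 in HCT116-CKAP2L and 120.4 ± 3.61 TPM in HCT116-Vector cells (SD, n = 3), a fall of 0.10 (adjusted p = 0.0462). It averaged 104 ± 2.77 in RKO-shCKAP2L and 137 ± 6.44 TPM in RKO-NC cells, and fell by 0.40 ± 0.03 (adjusted p = 4.87e-08), so FEN1 moved opposite to FADS2 in both lines. How far reads of these genes were shared in counting was not tested.

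ELOVL5, the elongase of polyunsaturated chains, stood at 82.5, 80.6 and 76.6 TPM in HCT116-CKAP2L cells, against 77.9, 86.3 and 83.4 TPM in HCT116-Vector cells. The groups overlapped, and the log2 fold change was -0.05 ± 0.04, with a 95% interval of -0.14 to 0.05 (adjusted p = 0.492). In RKO cells ELOVL5 was listed at 0, 0.03 and 0 TPM with shCKAP2L and at 0 in all 3 NC libraries. The ELOVL6 to ELOVL5 ratio was 0.426 ± 0.018 in HCT116-CKAP2L and 0.323 ± 0.0097 in HCT116-Vector cells (SD, n = 3), without overlap.

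SREBF1, the pathway's transcription factor, stood at 222, 223 and 228 TPM in HCT116-CKAP2L cells, against 169.7, 169 and 181 TPM in HCT116-Vector cells. Without overlap, it rose by 0.37 ± 0.03 (adjusted p = 5.09e-06). In RKO-shCKAP2L cells it stood at 61.8, 61.5 and 63.3 TPM, against 80.4, 83.2 and 76.2 TPM in RKO-NC cells. These groups did not overlap either, and SREBF1 fell by 0.36 ± 0.03 (adjusted p = 1.53e-07). SREBF1 overlaps RAI1, a chromatin-associated gene on the other strand, which rose by 0.24 in HCT116 cells (adjusted p = 0.00328) and did not pass in RKO cells (-0.04, adjusted p = 0.298). These are transcript levels, and the cutting that activates the protein was not measured.

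By level, SCD, FASN, ACLY and SREBF1 were the highest 4, in that order, in each group, and ranges overlapped only between ACLY and SREBF1 and between ACSS2 and ACACA, both in HCT116-CKAP2L cells. In HCT116 cells ELOVL5, ACSS2, ACACA, FADS1, ELOVL6 and FADS2 followed. In RKO-shCKAP2L cells ELOVL6, ACSS2, ACACA, FADS2, FADS1 and ELOVL5 followed, and in RKO-NC cells ACACA stood above ACSS2. The members summed to 1998, 1953 and 1941 TPM in HCT116-CKAP2L cells, against 1391, 1400 and 1471 TPM in HCT116-Vector cells. In RKO-shCKAP2L cells they summed to 968, 992 and 981 TPM, against 1396, 1413 and 1332 TPM in RKO-NC cells. SCD, FASN and ACLY together made up 74.0% to 74.4% of that sum in HCT116-CKAP2L cells, 70.2% to 70.9% in HCT116-Vector cells, 79.5% to 79.7% in RKO-shCKAP2L cells and 82.7% to 82.9% in RKO-NC cells.

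Taking both lines, 7 of the 8 members tested in each (SCD, FASN, ACACA, ACLY, ELOVL6, ACSS2 and SREBF1) were higher with overexpression in HCT116 cells and lower with knockdown in RKO cells. That held for 807 of 11024 genes tested in both lines (7.32%). FADS2 was the member higher in both, as were 5.15% of those genes. A joint fit of the 12 libraries gave the HCT116 change minus the RKO change, which passed as higher for 7 members (39.9% of all genes, with 15.4% lower). These 7 had already been called in opposite directions. Subtracting a fall from a rise adds their sizes, so their passing is no separate result. The difference was 1.54 ± 0.04 on the log2 scale for SCD (adjusted p = 1.01e-15) and ran from 0.32 for ACSS2 to 0.87 for FASN among the other 6. For FADS2 it was 0.04 ± 0.09, with a 95% interval of -0.15 to 0.24 (adjusted p = 0.705). Line and kind of manipulation cannot be told apart in this design.

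The same fit was also turned so that each line compared its state of higher CKAP2L with its state of lower CKAP2L, a contrast added after the data had been seen. In it 27.6% of all genes were called higher in HCT116 cells and 27.0% lower. FADS2 was the member that passed, with a difference of 0.77 ± 0.09 (95% interval 0.58 to 0.97, adjusted p = 1.24e-06). It had been called higher in both lines, so here its rises add up and its passing is no separate result. The other 7 did not pass, and their differences were -0.07 for SCD (interval -0.14 to 0.01), -0.07 for FASN (-0.19 to 0.04), 0.02 for ACACA (-0.11 to 0.14), -0.03 for ACLY (-0.12 to 0.06), 0.10 for ELOVL6 (-0.0009 to 0.21), 0.11 for ACSS2 (-0.01 to 0.22) and 0.02 for SREBF1 (-0.09 to 0.12). Those intervals bound a difference between the lines and do not show that the sizes were alike.

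**Figure D4:**
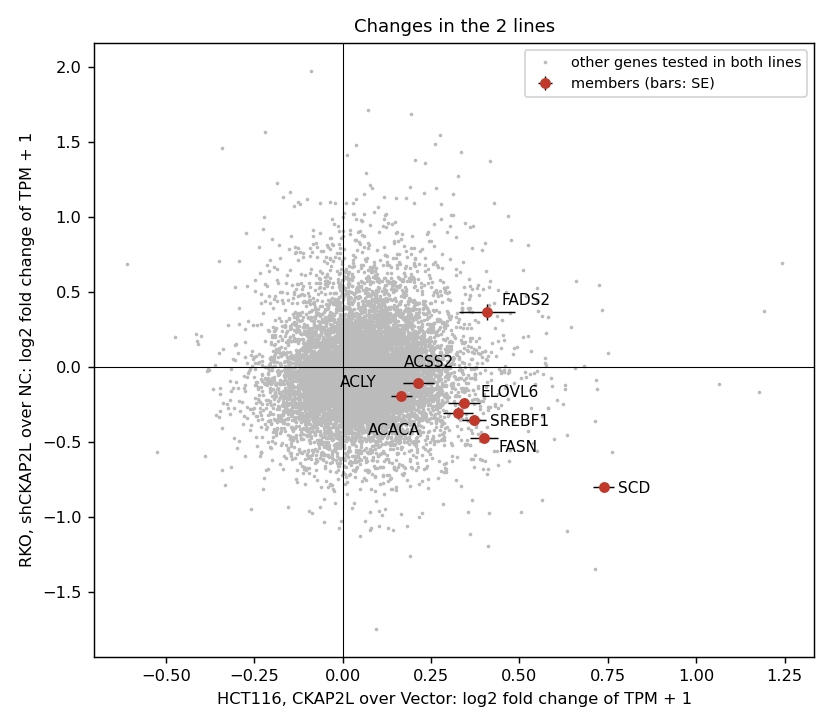
Log2 fold change of TPM + 1 in HCT116 cells (CKAP2L over Vector, horizontal) against that in RKO cells (shCKAP2L over NC, vertical), with the 8 members tested in both lines in red (bars, SE) and other genes in grey, CKAP2L left out. Of the members, 7 lie to the right and below 0, SCD farthest at 0.74 and -0.80, and FADS2 lies to the right and above 0.

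Over the 12 libraries, each line centred on its own mean, 7 of these 8 members had a Pearson r of 0.929 to 0.982 with the mean profile of the others, and FADS2 had 0.069. The libraries of a group share their treatment, so r mostly reflects the group means, and it is given as a description. Among 9273 other genes with a mean of at least 5 TPM in both lines, the profiles most like the members' mean included those of CANX, an ER chaperone (0.994), KDM5B, a histone demethylase (0.993), PVR, an adhesion receptor (0.993), and ITGA3, an integrin (0.992). The most opposite were ATP5F1A (-0.974) and ATP5MC1 (-0.959), subunits of ATP synthase, HSP90AB1 (-0.957), KRT8 (-0.951) and MT-ND4L (-0.948).

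Other enzymes of fatty acid synthesis, elongation and desaturation did not follow the members as a list. Of 14 tested in HCT116 cells, 2 rose and 2 fell. Over all tested genes, 16.4% were called higher and 4.26% lower in HCT116 cells. In RKO cells these shares were 26.4% and 42.1%, and the counts of this and the later lists stand beside them. HSD17B12, the reductase of the elongation cycle, averaged 53.2 TPM in HCT116-CKAP2L and 41.0 TPM in HCT116-Vector cells (adjusted p = 0.00011). It fell by 0.15 in RKO cells (adjusted p = 0.000829), and was the one gene of the list higher in HCT116 and lower in RKO cells. FADS3, a desaturase relative, averaged 176.5 TPM in HCT116-CKAP2L and 159 TPM in HCT116-Vector cells (adjusted p = 0.00949). ELOVL3 and OXSM, the mitochondrial synthase, fell (-0.33 and -0.18), but their calls depended on the settings. In RKO cells 6 rose and 5 fell. ELOVL1, which lengthens very long saturated chains, averaged 189.7 TPM in RKO-shCKAP2L and 119.7 TPM in RKO-NC cells, a rise of 0.66 ± 0.03 (adjusted p = 5.13e-11). SCD5, the second human stearoyl-CoA desaturase, averaged 38.6 TPM in RKO-shCKAP2L and 32.3 TPM in RKO-NC cells (adjusted p = 8.08e-06), opposite to SCD. ACACB, the mitochondrial partner of ACACA, averaged 3.48 TPM in RKO-shCKAP2L and 2.32 TPM in RKO-NC cells (adjusted p = 3.46e-05), also opposite to its paralogue.

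Of 10 genes that supply citrate and NADPH, 3 rose and 2 fell in HCT116 cells, and of 9 tested in RKO cells 1 rose and 5 fell. Malic enzyme ME1, an NADPH source, averaged 55.5 TPM in HCT116-CKAP2L and 42.6 TPM in HCT116-Vector cells (adjusted p = 6.08e-05) and was listed at 0 in all 6 RKO libraries. IDH1, another NADPH source, averaged 119.9 TPM in HCT116-CKAP2L and 98.9 TPM in HCT116-Vector cells (adjusted p = 9.91e-05), and 96.2 TPM in RKO-shCKAP2L and 129 TPM in RKO-NC cells (adjusted p = 3.39e-09). In RKO cells the pentose phosphate enzymes TALDO1 and TKT fell by 0.80 and 0.47, whereas SLC25A1, the citrate carrier, rose by 0.46 to 166 TPM in shCKAP2L cells, against 120.4 TPM in NC cells.

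Among 15 tested regulators around SREBP, 6 rose and none fell in HCT116 cells by limma (0 lower also at an unadjusted p under 0.05), while 2 rose and 9 fell in RKO cells. SREBF2, the sterol-pathway counterpart of SREBF1, averaged 248 TPM in HCT116-CKAP2L and 204 TPM in HCT116-Vector cells (adjusted p = 5.22e-05), and 127 TPM in RKO-shCKAP2L and 173 TPM in RKO-NC cells (adjusted p = 8.17e-10). MID1IP1, an activator of acetyl-CoA carboxylase, averaged 118 TPM in HCT116-CKAP2L and 98.5 TPM in HCT116-Vector cells, and 39.1 TPM in RKO-shCKAP2L and 51.9 TPM in RKO-NC cells, passing in both lines. INSIG1, which holds SREBP back in the ER, was higher in both lines, like FADS2. Its mean was 79.9 TPM in HCT116-CKAP2L and 47.7 TPM in HCT116-Vector cells (adjusted p = 1.49e-07), and 60.9 TPM in RKO-shCKAP2L and 46.7 TPM in RKO-NC cells (adjusted p = 5.33e-08). MLXIPL, the carbohydrate-responsive factor ChREBP, rose by 0.17 in HCT116 cells to 121 TPM, against 107.6 TPM with Vector, and stood at 3.44 and 3.92 TPM in RKO-shCKAP2L and RKO-NC cells without passing. NR1H2, a liver X receptor, fell by 0.54 in RKO cells.

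Cholesterol synthesis and uptake genes, which SREBP factors also drive, went the members' way. Of 23 tested in each line, 17 rose and none fell in HCT116 cells by limma (median log2 fold change 0.32, with 0 lower also at an unadjusted p under 0.05), and 1 rose and 21 fell in RKO cells (median -0.49). Of these, 16 were higher in HCT116 and lower in RKO cells (69.6%). STARD4, a sterol carrier, averaged 38.5 TPM in HCT116-CKAP2L and 24.5 TPM in HCT116-Vector cells, and 23.1 TPM in RKO-shCKAP2L and 50.5 TPM in RKO-NC cells. It rose by 0.63 in HCT116 cells and fell by 1.10 in RKO cells.

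Lists further along fatty acid use followed. In RKO cells 26.4% of all tested genes were called higher and 42.1% lower, so counts near these shares say little about a list. Of 12 acyl-CoA synthetases and uptake genes, 3 rose and none fell in HCT116 cells by limma (1 lower at an unadjusted p under 0.05, FABP5), and 3 rose and 5 fell in RKO cells. ACSL3 averaged 73.9 TPM in HCT116-CKAP2L and 62.3 TPM in HCT116-Vector cells, and 40.9 TPM in RKO-shCKAP2L and 72.2 TPM in RKO-NC cells, while ACSL5 was higher in both lines (0.19 and 1.20). Glycerolipid synthesis had 3 rises and 1 fall among 18 genes in HCT116 cells, and 7 rises and 7 falls among 17 in RKO cells. GPAT3, LPIN1 and LPIN2 were higher in both lines, GPAT3 by 0.96 in RKO cells and by 0.15 in HCT116 cells (limma adjusted p = 0.0321). Of 22 fatty acid oxidation genes, 1 rose and none fell in HCT116 cells (1 lower at an unadjusted p under 0.05, CPT1A), and 8 rose and 6 fell in RKO cells. HADHA and HADHB, the subunits of the trifunctional protein, rose by 0.49 and 0.78 in RKO cells, and ACAA1 and PPARA fell by 0.55 and 0.76. Of the lipolysis genes 3 of 5 rose and none fell in HCT116 cells by limma (median log2 fold change 0.17, 0 lower also at an unadjusted p under 0.05), and 1 of 6 rose and 4 fell in RKO cells (median -0.30). Of these PNPLA2, the first triglyceride lipase, and MGLL, the monoglyceride lipase, were higher in HCT116 and lower in RKO cells. Their HCT116 rises lay near the threshold, at 0.14 for PNPLA2 (limma adjusted p = 0.0484) and 0.21 for MGLL (adjusted p = 0.0329). LIPA was higher in both lines, by 0.19 in HCT116 cells (limma adjusted p = 0.0122) and by 0.75 in RKO cells (limma adjusted p = 8.63e-12). No AMPK subunit of 6 passed in HCT116 cells by limma, 0 also at an unadjusted p under 0.05, and 3 of 5 rose in RKO cells, PRKAG2 by 0.59.

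**Figure D5:**
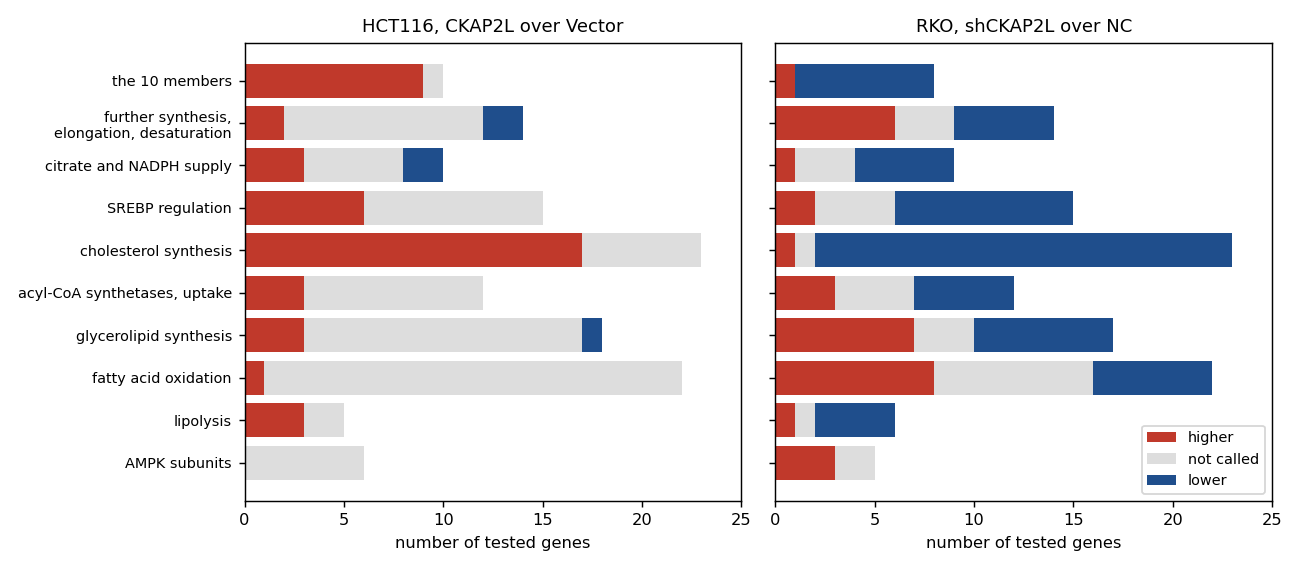
Number of tested genes called higher (red), not called (grey) and lower (blue) in each list, for HCT116-CKAP2L over Vector (left) and RKO-shCKAP2L over NC (right). The 10 members and cholesterol synthesis turn over between the panels, at 9 higher against 7 lower and at 17 higher against 21 lower, while the further synthesis genes hold both directions in each.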

How the data were processed

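RNA of 12 libraries was sequenced as poly(A)-selected mRNA libraries, per the labels' protocols, and the authors deposited TPM values per Ensembl gene in 1 table per cell line. Per the submitters' processing notes, GRCh38, Trimmomatic 0.36, HISAT2 2.0 and bedtools 2.26.0 were used; no source used here names the counting tool or its strand setting. Symbols came from a gene name table (19761 identifiers) and GENCODE 29 (463), and 39 had none. Each line was fitted on its own with limma 3.58.1 (R 4.3.3, trended prior, two-sided) on log2(TPM + 1) for genes with a mean of at least 1 TPM, with Benjamini-Hochberg adjustment over all of them at 0.05. Printed log2 changes refer to TPM + 1 and so understate those of low genes. The fit was tested on simulated data. TPM keeps no depth, so no counting interval is given. The members and lists were chosen with earlier results of these data known. Per list, up to 4 genes with the smallest adjusted p per line are named, apart from genes overlapping a member and genes listed as shared between lines. Promoter sequences are from RefSeq (GRCh38.p14), the first listed window of a gene. MUC2, listed as a colon marker, was not analysed here. Some genes that the naming rule selects are not reported here. Replicate numbers did not pair the libraries: the correlation of same-numbered deviations was -0.088 to 0.049.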

Additional observations from a re-analysis of the deposited data

Results flagged for a closer look

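FADS2 differed between the lines when each was read as higher minus lower CKAP2L, a contrast added after the data had been seen. In it 27.6% of all genes were called higher and 27.0% lower. FADS2 had already been called higher in both lines, so here its rises add up and its passing is no separate result. Its change of CKAP2L over Vector in HCT116 cells exceeded that of NC over shCKAP2L in RKO cells by 0.77 ± 0.09 on the log2 scale (limma adjusted p = 1.24e-06), and by 0.53 to 0.87 over all alternatives. FADS2 was higher in 3 of 3 CKAP2L libraries than in any Vector library, and in 3 of 3 shCKAP2L libraries than in any NC library. Its overlapping neighbour FEN1 gave -0.50 in the same contrast, and no other member passed.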

How the results depend on the processing

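Under every alternative 9 members were higher and 0 lower in HCT116 cells. In RKO cells 1 was higher and 7 lower, except under quantile normalization and without the shCKAP2L library numbered 1, where 6 were lower. Of 288 alternative values for members within a line, 286 kept direction and call and 2 (ACSS2 in RKO cells, given above) lost the call. Over all genes in HCT116 cells, 543 calls of lower became 341 with no filter on low values and 267 with an untrended prior. Calls of higher and lower numbered 1158 and 959 without mitochondrial mRNAs, 1102 and 1131 with quantiles matched, and 1119 and 1203 with median-of-ratios factors; the cause was not tested. Leaving out 1 library gave 1183 to 2851 higher and 296 to 577 lower in HCT116 cells, the fewest without the CKAP2L library numbered 1. The most came without the Vector library numbered 3, above the 2082 higher and 543 lower of the full fit. Fewer libraries were fitted each time, and the cause of these shifts was not tested. With the replicate number as a block, 1761 genes were higher and 439 lower in HCT116 cells and 3024 and 4837 in RKO cells, and no member's call changed. The FADS2 difference between lines (0.04) became -0.0468 under median-of-ratios rescaling, -0.0461 under quantile normalization, -0.0222 without mitochondrial mRNAs, and -0.0207 to 0.0951 over single libraries left out, never called. In the contrast of higher minus lower CKAP2L, SREBF1 (0.02) became -0.0015 under median-of-ratios rescaling and -0.0003 without mitochondrial mRNAs, with -0.0182 to 0.0467 over single libraries left out, and ACACA gave -0.0321 to 0.0489, none called. SCD was called there under median-of-ratios rescaling (-0.08), ELOVL6 (0.12) and ACSS2 (0.12) under quantile normalization, ACSS2 without the CKAP2L library numbered 3 (0.14) and ELOVL6 without the NC library numbered 1 (0.13). Of 576 list counts under alternatives, 75 moved by over 1.5 times; the cause was not tested. Depth is unknown, so the counting error of low values, such as those of FADS2 and of FADS1 and ELOVL5 in RKO cells, cannot be given.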
